A study of Homo sapiens with 4 samples.

Results

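The regions described here are 2436 promoters of protein-coding genes that the authors' deposited ATAC-seq table places in the set specific to the control hairpin (shNC). They were chosen by 3 labels of the table: a row identifier of the shNC-specific set, an annotation that starts with promoter-TSS, and the gene type protein-coding. They are 2436 of 8476 protein-coding promoter regions in the table, of which 5818 are in the common set and 222 in the set specific to the knockdown, and 2436 of 58127 regions of any kind. They belong to 2351 genes, which is 29.8% of the 7882 protein-coding genes with a promoter region in any set (95% exact binomial interval 28.8% to 30.9%, counting error only).

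All libraries are from MCF10A, a spontaneously immortalized line of human breast epithelium that does not form tumours, has basal features and depends on EGF. One group carried a hairpin against SNHG8d (shG8d), a transcript of a small nucleolar RNA host gene, and the other the control hairpin, with 2 libraries each, lettered A and B. No label says whether letters stand for separate cultures, so an error over libraries may be technical, and no label names a second hairpin against SNHG8d. The column labels contradict each other between sets: by what 1 read is worth in each column, the libraries labelled shNC in the shNC-specific rows are labelled shG8d in the common rows, so libraries are called here by their depth and no direction is given to the knockdown.

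ATAC-seq reports where a transposase can insert into chromatin, and its strongest sites are promoters, where nucleosomes are displaced just upstream of the transcription start. Most human promoters are CpG islands that stay open in nearly every cell type, kept so by general factors such as the SP and KLF family at GC boxes and NFY at CCAAT boxes. A smaller class with a TATA box and less CpG, which includes keratin and cytokine genes, opens by cell type or stimulus.

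The promoters of 10 genes are shown as examples. Those higher in the deeper pair have the higher GC content among the 10. The others, of lower GC content, have the opposite order or no call. Other named genes break this pattern, as given after the sequences. Each is the 150 bases before the gene's start in RefSeq (GRCh38.p14), 5′ to 3′ on the gene's strand. The regions themselves were called on hg19 and may use another start of the gene. Capitals mark matches, on either strand, to the motifs searched. Those seen here are the GC box with the letters GGGCGG, the CCAAT box bound by NFY, and the TATA box with the letters TATAAA. The others are the cyclic AMP element TGACGTCA, the AP-1 motif written TGANTCA, the NRF1 motif GCATGCGC, and the short palindrome TCGCGA. PTMA (prothymosin alpha, an acidic chromatin protein), EZH2 (the H3K27 methyltransferase), SKIL (a SMAD co-repressor), CDKN1A (the CDK inhibitor p21) and DKC1 (the pseudouridine synthase dyskerin) were higher in the deeper pair. GDF5 (a BMP-type ligand), COX7B (a subunit of cytochrome oxidase) and EPC1 (a subunit of the NuA4 acetyltransferase) were lower. KRT5 (the basal keratin) and CXCL8 (the chemokine IL-8) were not called.
PTMA (chr2:231708375-231708524, plus strand): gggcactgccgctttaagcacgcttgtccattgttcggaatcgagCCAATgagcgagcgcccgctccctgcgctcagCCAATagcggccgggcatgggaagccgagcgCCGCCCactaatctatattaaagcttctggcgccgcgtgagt
EZH2 (chr7:148884292-148884441, minus strand): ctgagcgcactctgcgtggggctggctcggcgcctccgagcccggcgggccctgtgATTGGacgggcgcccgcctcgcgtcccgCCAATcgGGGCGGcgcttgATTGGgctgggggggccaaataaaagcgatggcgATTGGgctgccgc
SKIL (chr3:170357565-170357714, plus strand): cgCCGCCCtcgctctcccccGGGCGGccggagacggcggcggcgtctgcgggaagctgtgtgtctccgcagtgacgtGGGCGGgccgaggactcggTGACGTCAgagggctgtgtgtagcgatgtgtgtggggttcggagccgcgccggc
CDKN1A (chr6:36678564-36678713, plus strand): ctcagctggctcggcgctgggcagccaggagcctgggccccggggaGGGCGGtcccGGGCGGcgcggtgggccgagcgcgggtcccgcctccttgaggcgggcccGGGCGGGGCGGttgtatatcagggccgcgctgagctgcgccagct
DKC1 (chrX:154762714-154762863, plus strand): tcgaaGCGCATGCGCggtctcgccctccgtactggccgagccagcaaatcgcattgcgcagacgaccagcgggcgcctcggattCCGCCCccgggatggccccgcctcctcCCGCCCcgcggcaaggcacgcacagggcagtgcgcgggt
GDF5 (chr20:35454750-35454899, minus strand): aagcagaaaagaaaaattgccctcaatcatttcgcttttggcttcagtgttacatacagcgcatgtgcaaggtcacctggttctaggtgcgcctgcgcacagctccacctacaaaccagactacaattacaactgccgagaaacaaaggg
COX7B (chrX:77899318-77899467, plus strand): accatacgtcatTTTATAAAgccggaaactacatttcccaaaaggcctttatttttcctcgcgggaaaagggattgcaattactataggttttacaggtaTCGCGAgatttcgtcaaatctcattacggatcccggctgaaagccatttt
EPC1 (chr10:32378770-32378919, minus strand): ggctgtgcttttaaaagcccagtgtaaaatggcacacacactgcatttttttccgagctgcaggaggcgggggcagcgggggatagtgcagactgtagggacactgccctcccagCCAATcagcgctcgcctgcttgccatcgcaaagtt
KRT5 (chr12:52520395-52520544, minus strand): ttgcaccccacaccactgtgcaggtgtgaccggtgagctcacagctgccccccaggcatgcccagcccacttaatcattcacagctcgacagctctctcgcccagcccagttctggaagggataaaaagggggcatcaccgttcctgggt
CXCL8 (chr4:73740419-73740568, plus strand): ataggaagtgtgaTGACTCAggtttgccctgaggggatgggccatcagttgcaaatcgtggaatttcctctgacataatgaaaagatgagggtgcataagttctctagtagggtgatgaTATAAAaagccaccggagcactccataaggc
These windows hold 64.7% GC at PTMA, 74.7% at EZH2, 79.0% at SKIL, 74.3% at CDKN1A and 72.3% at DKC1, over 300 bases from 250 before to 50 after the start. The values are 49.3% at GDF5, 44.0% at COX7B, 53.0% at EPC1, 56.3% at KRT5 and 39.3% at CXCL8. The value of PTMA lies below the set's median of 68.3%. Other named genes went against the pattern of the examples. DOLK (73.3%), PHKB (71.7%) and ARL6IP6 (67.0%) were lower in the deeper pair. NCK2 (51.3%), NSD1 (52.3%), TNIP1 (52.3%) and SET (38.3%) were higher. GC content over the set as a whole is described below. EZH2 has 4 CCAAT boxes around its GC box, CDKN1A has 4 GC boxes of which a pair overlap, and the NRF1 matches of DKC1 overlap in a palindrome. At CXCL8 the AP-1 match and the TATA box stand alone, and the bases printed for KRT5 and GDF5 hold no match to a motif searched.

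The deeper libraries held 8124488 (A) and 8111839 (B) reads in regions and the shallower ones 4457248 (A) and 4344212 (B). The authors' normalized counts scale these to one another, with 1 read worth 0.842, 0.807, 1.21 and 1.17 normalized counts in the same order. The limit that a count of 0 allows, 3 reads, stands between 2.42 and 3.62 normalized counts, which covers counting error only. The cell line's identity was checked at promoters. Of 10 epithelial markers, 7 had a protein-coding promoter region, 5 of them (KRT5, CDH1, EGFR, ITGB4, LAMB3) among the shNC-specific promoters. CDH3, EPCAM and TP63 had none in any set. Of 10 markers of blood, liver, muscle, neurons and endothelium, 0 had one in any set. A wider list of genes of other tissues had 5 genes with a promoter region, all 5 with a common one, and TUBB3, a neuronal tubulin, with a shNC-specific one as well (85.0 and 89.6 normalized counts in the deeper and 58.0 and 42.2 in the shallower libraries).

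The shNC-specific promoters had reads in all 4 libraries and were weaker by their median than the common promoters in each. Their median was 55.5 normalized counts (66 reads) in deeper A, 56.5 (70 reads) in deeper B, 44.7 (37 reads) in shallower A and 35.1 (30 reads) in shallower B. The lowest value of any of them was 18 reads in either deeper library, 6 in shallower A and 3 in shallower B. None was at 0, but 3 reads are no more than the limit that a count of 0 allows. Common promoters had medians of 108, 112, 108 and 97.2 normalized counts in the same order. Over the 4 libraries the median shNC-specific promoter stood at 49.2 (quartiles 36.8 and 67.9) and the median common promoter at 108.5 (quartiles 78.5 and 147.9), a ratio of 0.453. The ranges overlap widely, since the shNC-specific promoters reached from 21.8 to 335. The 222 shG8d-specific promoters had a median of 49.2 as well (quartiles 36.6 and 69.9), so a level below that of common promoters is not particular to the shNC-specific set.

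**Figure D1:**
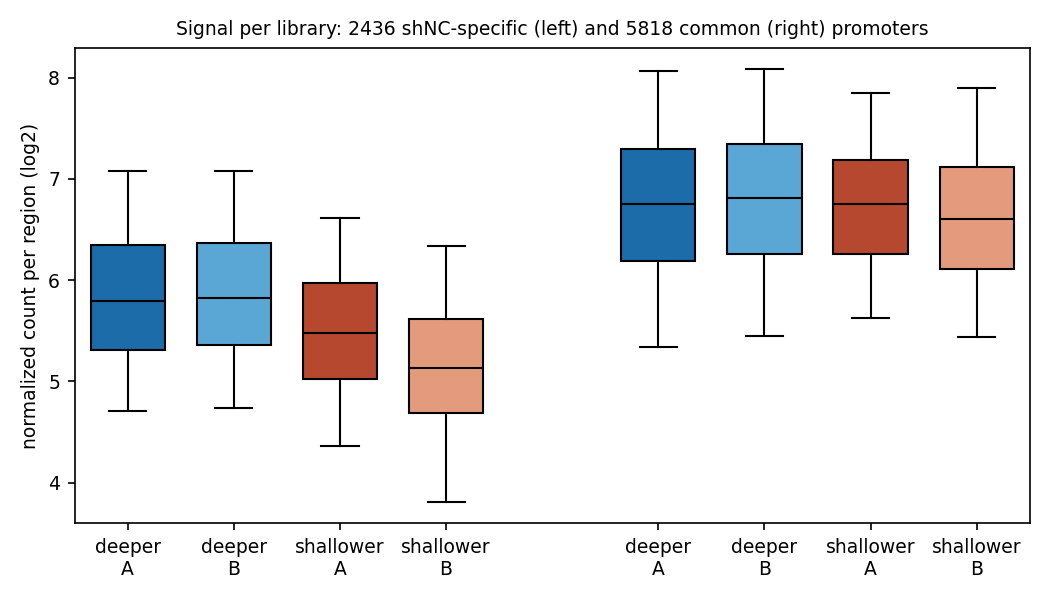
Normalized count per region on a log2 axis in each library, for 2436 shNC-specific promoters (left) and 5818 common promoters (right) of protein-coding genes. Lines are medians, boxes quartiles and whiskers the 5th and 95th percentiles over promoters; on the left the shallower libraries sit lower, B the lowest at a median of 35.1, and on the right the 4 medians lie between 97.2 and 112.

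The set is named for one group of these same libraries and is treated here as selected on the contrast between them, by a procedure that the sources used here do not give. The size of that difference is therefore a description. Calls from the fit over all regions, their standard errors and the fits that leave out a library are printed below to show size against spread and what each value depends on, and none is a test of these promoters or support for a difference at them. The median log2 difference, deeper minus shallower pair on log2(normalized count + 1), was 0.51 (quartiles 0.13 and 0.95, range -1.33 to 2.41). Over common promoters it was 0.07 and over all regions -0.02. In limma's fit over all regions, 757 of the 2436 promoters (31.1%) passed an adjusted p of 0.05 as higher in the deeper pair, where 11.1% of all regions did. A further 21 (0.862%) passed as lower, where 12.4% of all regions did. The rule used this contrast, so nothing is read from these shares.

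The set is not one of promoters with reads in one group and none in the other, since each had reads in every library. Of its 2436 promoters, 1658 were not called, as were 44430 of all 58127 regions. A missing call with 2 libraries in a group does not show that the groups are alike. A difference of less than 1.5-fold was seen at 1267 (52.0%), against 64.2% of all regions. The sign was the opposite at 437, and 29620 of all regions had that sign. At least a 2-fold difference was seen in 552, and 8 differed 2-fold or more the other way. Over all regions these counts were 3240 and 3895. Both deeper libraries stood above both shallower ones at 1396 promoters (57.3%; 30.5% of all regions), below both at 175 (7.18%; 32.9% of all regions), and the pairs overlapped at 865. The scale of the libraries moves these counts. With each library set to the same total of reads in regions, the median over all regions moves by -0.35, that of the shNC-specific promoters becomes 0.16, and 387 are higher and 100 lower. Leaving out a library gave 283 higher without deeper A, 302 without deeper B, 1110 without shallower A and 615 without shallower B. The lower calls numbered 5, 8, 40 and 42 in the same order.

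**Figure D2:**
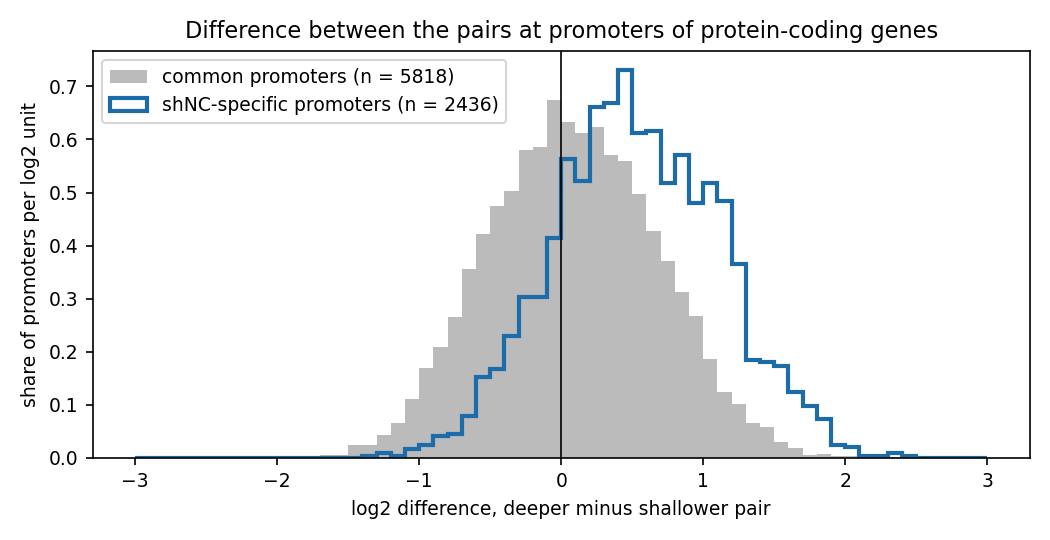
Log2 difference between the pairs (deeper minus shallower, log2 of normalized count + 1) on the x axis and the share of promoters per log2 unit on the y axis, for shNC-specific (blue outline) and common (grey) promoters. The blue outline is centred at 0.51 and the grey histogram at 0.07, and they overlap over most of their width.

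The gap was wider to shallower B than to shallower A, and it remained with shallower A alone. The lowest of the 4 values was shallower B at 1567 of the 2436 promoters (64.3%), against 41.7% of common promoters and 30% of all regions. It was shallower A at 471. The deeper pair exceeded shallower A alone by a median log2 of 0.34 and shallower B alone by 0.69. Within the deeper pair, A minus B had a median of -0.03, and within the shallower pair 0.39, where common promoters had 0.11.

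The libraries lettered A and B were also set against each other. Since shallower B is the lowest library at most of these promoters, higher values in A restate that fact and are a description as well. In limma's fit of A minus B with the pair as covariate, 2 shNC-specific promoters passed an adjusted p of 0.05 as higher in A and 0 as higher in B. The shares over all regions were 0.143% and 0.00516%. At an unadjusted p under 0.05, 232 (9.52%) were higher in A and 21 (0.862%) higher in B, with 2.77% and 2.20% over all regions. The first called promoter is that of TMEM250, which had 226 and 215 normalized counts in the deeper libraries and 87.0 and 18.7 in the shallower (A minus B on the log2 scale 1.11, SE 0.238). The second is AGO1, an Argonaute protein of small RNA silencing, with 86.7 and 65.4 against 49.5 and 8.20 (1.43, SE 0.336). At both, shallower B stands apart from the other 3 libraries.

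Most shNC-specific promoters lay at the start site, at much the same share as common promoters. The listed distance to the start had a median of -36 bp, negative being upstream (quartiles -135 and 25), and 1924 (79.0%) lay within 200 bp, where 78.5% of common promoters did. Beyond 500 bp lay 233 (9.56%), against 4.98% of common promoters. The 222 shG8d-specific promoters were placed otherwise, with 36.9% within 200 bp and 34.7% beyond 500 bp. The 1924 near the start had a median log2 difference of 0.54 with 632 called higher (32.8%). Those 200 to 500 bp upstream had 0.55 with 32.0% higher, and the 207 farther upstream 0.26 with 34 higher (16.4%). Of common promoters 21.2%, 18.5% and 15.3% were called higher in the same ranges, and of all regions 11.1%.

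Difference and level went together. With the shNC-specific promoters ranked by mean signal and cut into 5 equal bins, the median log2 difference was 0.39, 0.39, 0.44, 0.67 and 0.72 from the weakest to the strongest bin. The share called higher went from 15.2% to 53.4%. Common promoters of like level lay lower in each range: between 40 and 60 normalized counts their median was -0.21 where the shNC-specific promoters had 0.47, and between 80 and 120 it was 0.09 where they had 0.75. Since the set is treated as selected on this contrast, nothing is read from its place above common promoters of like level. How far signal strength limits what can be called was not tested.

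By chromosome, the shNC-specific set took from 18.2% (chromosome 18, 22 of 121) to 37.5% (chromosome 16, 146 of 389) of protein-coding promoter regions, leaving out Y with 5 such regions. Chromosomes X (36.5%), 20 (36.3%), 22 (35.1%) and 17 (34.8%) stood near the top and 4 (21.6%) near the bottom. The median log2 difference lay between 0.30 and 0.64 on every chromosome but Y.

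For most genes the shNC-specific region is their one promoter region in the table. No promoter region of another set was annotated to 2068 of the 2351 genes (88.0%). Of all 2351 genes, 1398 (59.5%) had a common region of any kind annotated to them, promoters included. A common region outside promoters was annotated to 1299. A common promoter was listed beside the shNC-specific one for 253 genes (10.8%), and there the common one was the stronger at 237 (93.7%), with medians of 109 and 57.7 normalized counts. At 60 of the 253 both regions were annotated to the same transcript accession, so they lie beside 1 start and are not separate starts. The median log2 difference of these 253 genes was 0.33 at the shNC-specific and -0.03 at the common promoter. Regions beside a common promoter lay farther out: of the 266 shNC-specific regions of genes with a common promoter, 22.9% lay beyond 500 bp, against 7.93% of the other 2170.

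Examples show how unlike the promoters of 1 gene could be. RALGDS, an exchange factor for RAL GTPases, had 182 and 164 normalized counts in deeper A and B and 56.8 and 32.8 in shallower A and B at the shNC-specific region, and its common region had 170 and 167 against 153 and 130.1. BAZ2B, a bromodomain protein of chromatin remodelling, had 173 and 128 normalized counts in deeper A and B and 59.2 and 49.2 in shallower A and B at one start, and 34.5 and 52.4 against 88.2 and 73.8 at the common region beside it. The pairs of libraries are thus in opposite order at the neighbouring starts of BAZ2B, one of 7 genes with opposite calls, while RALGDS was called at the shNC-specific start alone. PLEC, the cytoskeletal linker plectin, was higher in the deeper pair at both, with log2 differences of 1.12 and 0.85. There were 4 genes with 3 shNC-specific promoter regions (MYO18A, SEPTIN9, BCAR3 and LOC388436), with 2 of 3 called higher at MYO18A and at LOC388436 and none at SEPTIN9 or BCAR3. The 2 called regions of LOC388436 are both listed at -307 bp from the same transcript, so they may be copies that share reads. The strongest region of LOC388436 was not called. The call of the strongest region at MYO18A is lost without deeper A, deeper B or shallower B and under equal totals.

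Sequence could be looked up in the RefSeq promoter table for 1914 of 2349 genes of the set (81.5%) and 4764 of 5643 with a common promoter. The shNC-specific promoters had a median GC content of 68.3% (quartiles 60.8% and 75%), common promoters 65%, all 15843 protein-coding promoters in the RefSeq table used here 62.7%, and those of the 9306 genes with no promoter region 60%. The CpG content relative to base composition was 0.84, 0.85, 0.76 and 0.63 in the same order. In these windows of 300 bases GC boxes were in 74.3% of shNC-specific, 72.8% of common and 58.5% of all promoters. CCAAT boxes were in 30.8%, 42.5% and 36.4%, the ETS motif CCGGAAG in 15.2%, 20.9% and 14.2%, and the YY1 motif AAGATGGC in 4.08%, 6.23% and 3.91%. Common promoters thus had more matches to CCAAT, ETS and YY1 letters, while the GC box share was alike. The TATA box was in 5.96%, 4.70% and 9.63%, AP-1 in 5.28%, 4.66% and 5.75%, NRF1 in 5.12%, 5.56% and 4.26%, the CRE in 2.77%, 3.48% and 2.59% and the E-box CACGTG in 11.1%, 10.3% and 8.88%. TCGCGA was in 4.96%, 6.02% and 4.39%, and the grainyhead letters AACCGGTT in 0.261%, 0.13% and 0.14%. A second protein-coding start facing away within 1000 bp, a divergent promoter, was found for 7.78% (149 genes), 14.6% and 10.5%. Of the 221 genes with a shG8d-specific promoter, 179 could be looked up. CCAAT boxes were in 32.4% of these, the ETS motif in 12.3% and the YY1 motif in 3.91%, near the shares of the shNC-specific promoters. The GC box was in 60.3% of them and a divergent promoter was found for 15.1%, unlike the shNC-specific promoters. A match to letters is not evidence of binding.

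Within the set, the difference between the pairs went with GC content. Under 55% GC the median log2 difference was 0.25 (243 promoters), from 55% to 65% it was 0.38 (461), from 65% to 75% it was 0.58 (713) and from 75% up it was 0.76 (497). Common promoters had -0.22, 0.02, 0.22 and 0.24 in the same ranges. Nothing is read from the gap between the sets, since the shNC-specific set is treated as selected on this contrast. Across promoters Pearson's r of GC content with the difference was 0.27 over 1914 shNC-specific and 0.24 over 4764 common promoters, as a description, since promoters share the 4 libraries. The same GC content had an r of 0.17 with A minus B within the shallower pair and -0.0067 within the deeper pair. In the most GC-rich range the medians were 61.4 and 62.9 normalized counts in the deeper and 44.7 and 32.8 in the shallower libraries. Under 55% GC they were 45.4 and 47.6 against 41.1 and 35.1. The part that a library's response to GC plays in the difference was not tested.

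**Figure D3:**
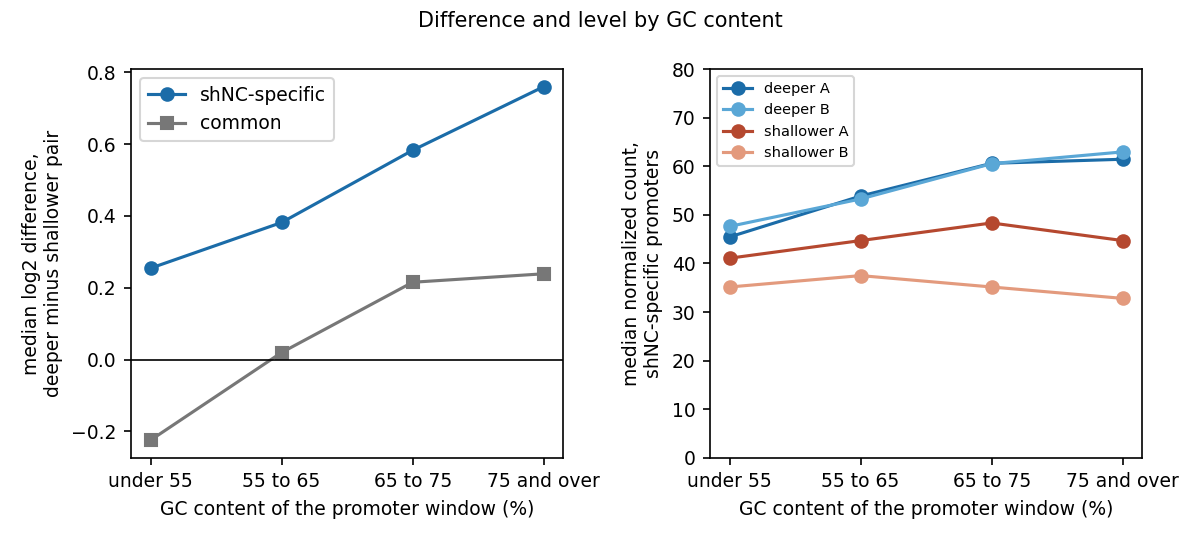
Left: median log2 difference, deeper minus shallower pair, against GC content of the promoter window, for shNC-specific (blue) and common (grey) promoters. Right: median normalized count of the shNC-specific promoters in each library by the same GC ranges. The blue line goes from 0.25 to 0.76, above the grey line in every range, and the right panel shows shallower B flat to falling where the deeper libraries rise to 61.4 and 62.9. The set is treated as selected on this difference, so nothing is read from the gap between the lines.

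Promoters with a GC box had a median log2 difference of 0.59 (1423 promoters) and those without 0.33 (491). With a TATA box the median was 0.28 (114 promoters) and without 0.54. The 618 matched genes called higher had a median GC content of 72.3% and the 17 called lower 59.7%.

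The genes were described in 29 lists of pathways and families, by how many of the genes with any promoter region had a shNC-specific one, beside 29.8% over all genes. Above that stood genes of epithelial-mesenchymal transition and luminal mammary genes at 55.6% each (5 of 9), epithelial adhesion and junction genes at 48.4% (15 of 31), Notch genes at 44.4% (8 of 18), Hippo genes at 42.1% (8 of 19) and hemidesmosome, laminin and basal genes at 41.7% (10 of 24). Below it stood the AP-1 family at 15.4% (2 of 13), NRF2 antioxidant genes at 17.6% (3 of 17), the spliceosome at 16.3% (13 of 80), translation factors at 16.3% (7 of 43), cytosolic ribosomal proteins at 17.5% (11 of 63), the proteasome at 20% (6 of 30) and the cell cycle at 20.8% (11 of 53). No test of a list was made. Counts of calls move with the library left out: of the 2351 genes 739 were higher in the fit to all libraries, 281 without deeper A, 299 without deeper B, 1081 without shallower A and 600 without shallower B. The 739 are 31.4% of the genes, and each list's count is to be read beside that share. After a list's count, the counts without deeper A, deeper B, shallower A and shallower B follow in that order. After a gene's log2 difference and SE, the fits without 1 library or with equal totals in which its call is lost are named. With only regions within 200 bp of a start, no share moved outside the exact binomial interval of its own count. Those intervals are wide for short lists, so this does not show that the shares are stable. TGF-beta genes went from 34.6% to 25%, HMG proteins and linker histone partners from 31.8% to 23.5% and nucleosome remodelling from 31.7% to 27.6%, each to below 29.8%. Genes of epithelial-mesenchymal transition went from 55.6% to 75% (3 of 4).

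**Figure D4:**
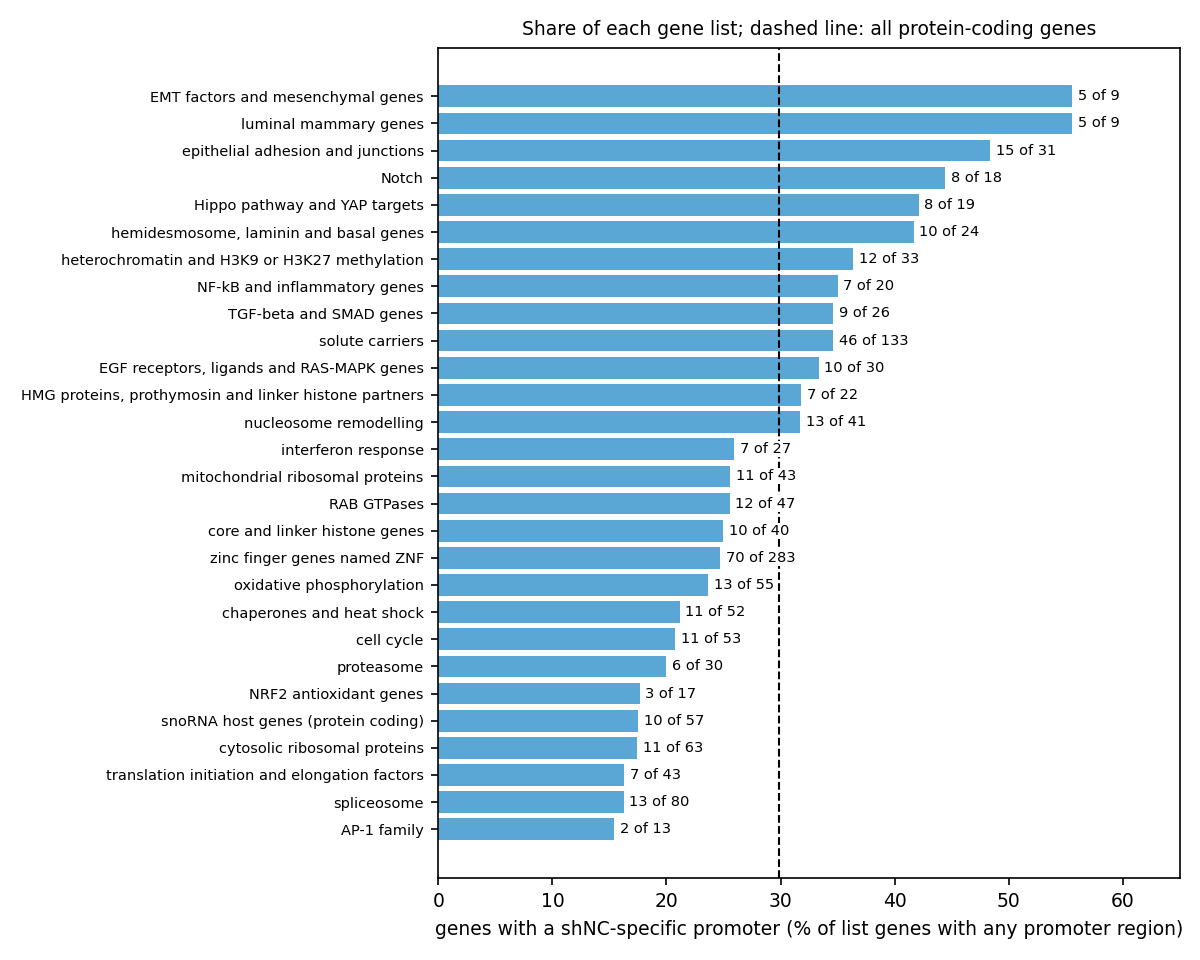
Share of the genes of each list with a shNC-specific promoter, as a percent of its genes with any promoter region; numbers beside the bars give the counts, lists with at least 9 such genes are shown, and the dashed line marks 29.8% over all genes. The shares go from 15.4% for the AP-1 family to 55.6% for mesenchymal and luminal genes.

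Of the 15 adhesion and junction genes, 6 were called with the deeper pair higher and 0 lower, with a median log2 difference of 0.44 beside 0.52 over all 2351 genes. The counts without 1 library are 3, 2, 9 and 5, and 31.4% of all genes of the set are called higher. PARD6B, a polarity protein of the apical complex, had 190.2 and 178 normalized counts in deeper A and B and 74.9 and 76.2 in shallower A and B (log2 difference 1.27, SE 0.20). CDH1, the E-cadherin that holds adherens junctions, had 90.9 and 104 against 48.3 and 43.4 (log2 difference 1.07, SE 0.25, lost without deeper B). At both genes the pairs do not overlap and the libraries of a pair lie close. ELF3, an epithelial ETS factor, had 85.0 and 125 against 78.5 and 72.6 and was not called. The other called members, named after their values were seen, were CTNNB1 (log2 difference 1.26, lost without deeper A, deeper B or shallower B and under equal totals), PATJ (log2 difference 1.38), TJP1 (log2 difference 1.15, lost without deeper A or deeper B) and ST14 (log2 difference 0.95, lost without deeper A or deeper B and under equal totals). CTNNB1 is beta-catenin, PATJ and TJP1 are scaffold proteins of tight junctions, and ST14 is the membrane protease matriptase. EPCAM had no promoter region in any set.

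Hemidesmosomes anchor basal epithelium to laminin, and 3 of 10 genes of that list were called higher and 0 lower (3, 3, 4 and 4 higher without 1 library), much as the 31.4% over the set. ITGB4, the integrin chain of hemidesmosomes, had 146 and 139.6 normalized counts in deeper A and B and 48.3 and 55.1 in shallower A and B (log2 difference 1.45, SE 0.22). PLEC, which ties that integrin to keratin, had 228 and 249 against 139 and 85.5 (log2 difference 1.12, SE 0.21). Both stand apart between the pairs, and the third call, ITGB1 (log2 difference 1.34, named after its value was seen), is the common beta chain of laminin and collagen receptors. KRT5 had 188 and 149 against 127 and 117, SFN, the epithelial 14-3-3 sigma, had 129.6 and 111 against 71.3 and 101, and LAMB3, a chain of laminin-332, had 141 and 115 against 115 and 123. None of these 3 was called. The pairs overlap at LAMB3 and do not at KRT5 and SFN. Of 5 luminal genes 2 were higher (1, 1, 2 and 2 without 1 library), and ALDH1A3, a retinaldehyde dehydrogenase, had 81.6 and 72.6 against 35.0 and 19.9 (log2 difference 1.51, SE 0.32). KRT8 had 74.9 and 103 against 74.9 and 62.1 and KRT18 68.2 and 68.6 against 99.1 and 43.4, without a call. The other luminal call was CD24 (log2 difference 1.14, SE 0.34, lost without deeper A or deeper B and under equal totals, named after its value was seen). Its difference equals the median of the 3 shNC-specific regions on chromosome Y, so its region may be listed there. Where its reads come from was not tested.

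**Figure D5:**
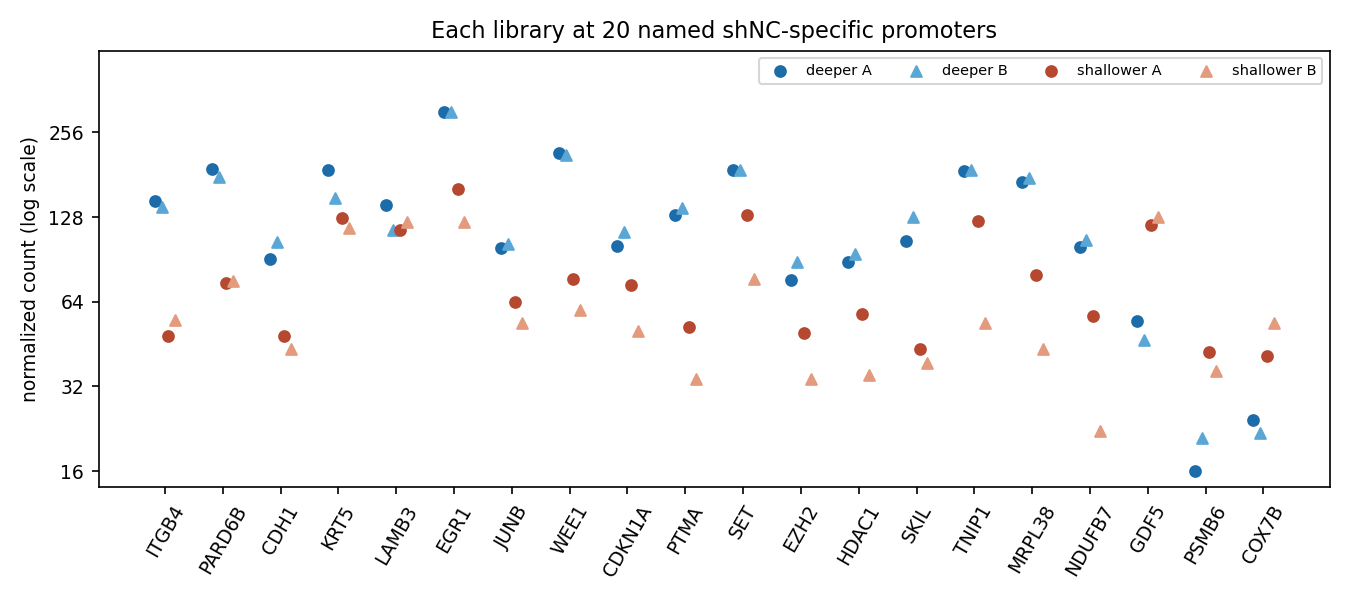
Normalized count (log axis) of 20 named shNC-specific promoters in the 4 libraries, deeper A and B in blue and shallower A and B in red. At ITGB4, WEE1 and PTMA both blue points lie well above both red ones; at LAMB3 they overlap; at GDF5, PSMB6 and COX7B the order is the opposite.

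Growth factor and immediate early genes were mixed. In the EGF receptor and RAS list 2 of 10 were higher and 0 lower (0, 2, 6 and 2 without 1 library), led by SOS2, an exchange factor for RAS, with 111 and 88.0 against 60.4 and 24.6 (log2 difference 1.33, SE 0.33, lost without deeper A). EGR1, an immediate early zinc finger factor of serum and EGF response, had 303 and 303 normalized counts in deeper A and B and 161 and 123 in shallower A and B (log2 difference 1.10, SE 0.18) and is among the 10 strongest promoters of the set. JUNB, an AP-1 subunit, had 99.3 and 102 against 64 and 53.9 (log2 difference 0.77, SE 0.23, lost without deeper A or deeper B and under equal totals). The deeper libraries agree closely at EGR1 and JUNB. Of 9 TGF-beta genes, 4 were higher and 0 lower, beside 31.4% over the set, and 3, 1, 5 and 3 were higher without 1 library. SKIL had 105 and 128 against 43.5 and 38.7 (log2 difference 1.48, SE 0.25) and SKI, its paralog, had 90.0 and 103 against 45.9 and 41.0 (log2 difference 1.13, SE 0.25, lost without deeper B). ID2, a dominant-negative helix-loop-helix factor, had 106 and 83.9 against 59.2 and 45.7 (log2 difference 0.85, SE 0.25, lost without deeper A or deeper B and under equal totals), while its relative ID1 had 101 and 109.8 against 112 and 108 with all 4 libraries alike.

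The study's title concerns histone H1 and chromatin condensation, and genes of that kind were followed. Among 7 genes of HMG proteins and linker histone partners, 2 were higher and 0 lower (1, 2, 4 and 2 without 1 library). PTMA had 130.4 and 138 normalized counts in deeper A and B and 51.9 and 34.0 in shallower A and B (log2 difference 1.65, SE 0.25) and SET, a histone chaperone, had 189 and 188 against 130.5 and 77.3 (log2 difference 0.90, SE 0.22, lost without deeper A and under equal totals). PTMA separates the pairs by more than 2-fold, while at SET the gap is widest to shallower B. HMGB2 had 114 and 82.3 against 109 and 78.5 and ANP32A, another acidic chaperone, 57.2 and 47.6 against 58.0 and 70.3, with no call. Of 10 histone genes only H2AFY, which encodes macroH2A, was called (log2 difference 0.79, lost without deeper A, deeper B or shallower B and under equal totals, named after its value was seen), and under equal totals 0 are higher and 3 lower. The linker histone gene HIST1H1C had 53.0 and 68.6 against 58.0 and 59.8, all 4 libraries close, and the median of the 10 was -0.13. Histone genes are near-identical copies, so reads may be shared among them.

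Of 12 heterochromatin genes 3 were higher and 0 lower (0, 0, 5 and 4 without 1 library), EZH2 with 76.6 and 88.8 against 49.5 and 34.0 (log2 difference 0.99, SE 0.27, lost without deeper A or deeper B and under equal totals) and, named after their values were seen, SUV39H1, an H3K9 methyltransferase (log2 difference 1.09, lost without deeper A or deeper B), and DNMT3A, a DNA methyltransferase (log2 difference 0.99, lost without deeper A, deeper B or shallower B and under equal totals). The polycomb reader CBX8 was not called, with 85.0 and 100.1 against 48.3 and 75. Of 13 nucleosome remodelling genes 5 were higher and 0 lower (3, 3, 6 and 5 without 1 library). BAZ2B is given above (log2 difference 1.44, SE 0.23), HDAC1, a histone deacetylase, had 88.4 and 94.4 against 58.0 and 35.1 (log2 difference 1.0, SE 0.27, lost without deeper A or deeper B and under equal totals), and BRD9, a subunit of a SWI/SNF complex, had 72.4 and 101 against 45.9 and 45.7 (log2 difference 0.89, SE 0.26, lost without deeper B and under equal totals). At each of these 3 genes both deeper libraries lie above both shallower ones.

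In the cell cycle list 3 of 11 were higher and 0 lower (1, 2, 5 and 2 without 1 library). WEE1, the kinase that holds CDK1 inactive, had 217 and 213 normalized counts in deeper A and B and 77.3 and 59.8 in shallower A and B (log2 difference 1.65, SE 0.20). CDKN1A had 101 and 113 against 73.7 and 50.4 (log2 difference 0.80, SE 0.24, lost without deeper A, deeper B or shallower B and under equal totals). CDKN1B, the inhibitor p27, had 94.3 and 90.4 against 85.8 and 36.3, with shallower B low and shallower A near the deeper libraries.

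Genes of mitochondrial translation and respiration stood below the overall share of 29.8%. Mitochondrial ribosomal proteins had 11 of 43 genes with a shNC-specific promoter, of which 6 were higher and 0 lower, with a median log2 difference of 1.0. Without 1 library 3, 4, 7 and 6 were higher and the median lay between 0.65 and 1.18. All 11 estimates were above 0, as were 82.2% over the set, and under equal totals 5 were higher and 9 of 11 above 0. MRPL38 had 171 and 176 normalized counts in deeper A and B and 79.7 and 43.4 in shallower A and B (log2 difference 1.54, SE 0.25) and MRPL40 162 and 181 against 109 and 60.9 (log2 difference 1.06, SE 0.24). In oxidative phosphorylation 13 of 55 genes were in the set, 6 higher and 1 lower (5, 1, 7 and 5 higher without 1 library). NDUFB7, of complex I, had 100.1 and 106 against 56.8 and 22.3 (log2 difference 1.5, SE 0.33), SDHB, the iron-sulfur subunit of complex II, had 90.0 and 102 against 55.6 and 29.3 (log2 difference 1.22, SE 0.29, lost without deeper B), and COX7B had the opposite order with 24.4 and 21.8 against 41.1 and 53.9 (log2 difference -1.0, SE 0.34, lost without deeper A, deeper B or shallower B).

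Cytosolic ribosomal proteins differ from the mitochondrial ones in the counts: 1 of 11 was higher (0, 0, 2 and 0 without 1 library), RPL13A with 76.6 and 66.2 against 42.3 and 37.5 (log2 difference 0.82, SE 0.27, lost without deeper A, deeper B or shallower B and under equal totals), and the median was 0.26. The difference between the lists was not tested. The spliceosome list had 4 of 13 higher (1, 2, 5 and 4 without 1 library), the proteasome 0 of 6, and PSMB6, a catalytic subunit, was lower with 16 and 21.0 against 42.3 and 36.3 (log2 difference -1.06, SE 0.36, lost without deeper A, deeper B or shallower A). The list meant for hosts of small nucleolar RNAs took all RPL and EEF genes by name, and whether each is a host was not checked. It thus shares genes with the cytosolic ribosomal list. Of its 10 genes in the set 2 were higher (1, 1, 2 and 1 without 1 library). DKC1 had 90.0 and 80.7 against 30.2 and 19.9 (log2 difference 1.76, SE 0.30), and RPL13A was the other one called. The solute carrier list took every gene with a name that starts with SLC, without a check that each is a carrier. It had 46 of 133 genes in the set, 23 higher and 1 lower with a median of 0.76, beside 31.4% higher and 0.52 over the set. Without 1 library 6, 12, 29 and 20 were higher. SLC31A2 and SLC22A5, transporters of copper and carnitine, had 152 and 129.9 against 68.9 and 57.4 and 146 and 141 against 76.1 and 59.8. The 70 genes with names that start with ZNF, ZFP, ZSCAN or ZKSCAN had 13 higher and 1 lower (4, 6, 21 and 9 higher without 1 library). The lower one was ZKSCAN2 (log2 difference -0.73, lost without deeper A, deeper B or shallower B). ZNF354A had 189 and 215 against 66.4 and 43.4 (log2 difference 1.89, SE 0.23).

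In the NF-kB list 3 of 7 were higher (1, 1, 4 and 2 without 1 library). TNIP1, an inhibitor of the pathway, had 187 and 188 against 124 and 53.9 (log2 difference 1.18, SE 0.27), MAP3K14, the kinase NIK, 123 and 122 against 49.5 and 93.7 (log2 difference 0.83, SE 0.26, lost without deeper A, deeper B or shallower A and under equal totals), and NFKB1, named after its value was seen, was the other one called (log2 difference 1.05, lost without deeper A, deeper B or shallower B and under equal totals). CXCL8 had 52.2 and 61.3 against 38.7 and 76.2, with the extremes in the shallower pair. Of 8 Hippo genes 1 was higher (1, 1, 2 and 1 without 1 library). TEAD3, a DNA-binding partner of YAP, was called with 101 and 111 against 43.5 and 29.3 (log2 difference 1.54, SE 0.27), while YAP1 had 65.6 and 76.7 against 68.9 and 51.6 and the YAP target CYR61 63.1 and 69.4 against 111 and 51.6. Of 5 genes of epithelial-mesenchymal transition 1 was higher (0, 0, 3 and 0 without 1 library). SNAI1 was called with 69.8 and 72.6 against 44.7 and 34.0 (log2 difference 0.85, SE 0.28, lost without deeper A, deeper B or shallower B and under equal totals). HLA-C, a class I antigen-presenting molecule, is 1 of 2 called higher among 7 interferon genes (0, 1, 3 and 2 without 1 library), with 93.4 and 67.0 against 41.1 and 28.1 (log2 difference 1.19, SE 0.29, lost without deeper A).

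The strongest promoters of the set included ANKRD30BL with 414 and 387 against 338 and 202 (log2 difference 0.61, SE 0.20, lost without deeper A, deeper B or shallower B and under equal totals), FAM72C with 309.7 and 326 against 238 and 193 (log2 difference 0.56, SE 0.17, lost without deeper A or deeper B and under equal totals), and B4GALT1, a galactosyltransferase, with 326 and 295 against 193 and 119.5 (log2 difference 1.02, SE 0.20). FAM72B and FAM72C are near-identical copies, so their reads may be shared and their values are uncertain. The promoters with the largest positive differences included TMEM250, given above (2.41), NCK2, an SH2 and SH3 adaptor, with 43.8 and 44.4 against 12.1 and 4.69 (log2 difference 2.39, SE 0.45, lost without deeper A or deeper B), ZBTB9 with 190.2 and 166 against 60.4 and 19.9 (log2 difference 2.32, SE 0.34) and NSD1, an H3K36 methyltransferase, with 53.9 and 68.6 against 23.0 and 5.86 (log2 difference 2.27, SE 0.46). At NCK2, ZBTB9, NSD1 and TMEM250 shallower B is the lowest library and lies more than 2-fold below shallower A. The steadier cases are WEE1 and ITGB4, where the shallower libraries are close to one another.

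The 21 promoters that were lower in the deeper pair go against the name of the set, as its rows are labelled. GDF5 had 54.7 and 46.8 normalized counts in deeper A and B and 119.6 and 128 in shallower A and B (log2 difference -1.27, SE 0.23) and ARL6IP6, a membrane protein gene, had 124 and 102 against 214 and 254 (log2 difference -1.05, SE 0.19). EPC1 had 21.9 and 33.9 against 41.1 and 101 (log2 difference -1.21, SE 0.37, lost without deeper A or shallower B), with its common promoter at a log2 difference of 0.12, and DOLK, a dolichol kinase, had 58.9 and 46.0 against 96.6 and 128 (log2 difference -1.08, SE 0.25, lost without deeper B). PHKB (log2 difference -1.13, SE 0.31, lost without deeper A), KLK9 (log2 difference -1.09, SE 0.37, lost without deeper A, deeper B or shallower B), COX7B and PSMB6 complete the 8 largest. Why regions of this order are listed as specific to the control is not given in the sources used here. Over all 143 genes named by rule, 70 were called, 32 of those 70 in each of the 4 fits that leave out a library, and 50 under equal totals.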

How the data were processed

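CASAVA 1.4 made the base calls and hg19 was the build, per the submitters' processing notes. The sources used here give no aligner, peak caller, scaling or rule for the specific sets. Per the file headers, the authors deposited for each region and library a log10 value, a normalized count on a log10 scale, with a log2 fold change and a p-value for each region. Raising 10 to it gave whole multiples of 1 step per column (within 0.05 reads), from which reads and libraries were matched across the 3 sets. The authors' log2 fold change lay within 0.00920 of one recomputed from the labelled columns.

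Values as log2(normalized count + 1) were tested in limma 3.58.1 under R 4.3.3, its variance prior following the mean, 2 deeper against 2 shallower libraries, over all 58127 regions, with Benjamini-Hochberg adjustment at 0.05. A pseudocount of 1 understates differences of low regions. The filter of 10 normalized counts in 2 libraries removed none. The test was also run on simulated data, and the outcome of that run is not given here. Promoter windows (250 bases before to 50 after a start) come from RefSeq, GRCh38.p14. Of the 2436 regions, 2434 matched a RefSeq gene, and 7 symbols that a spreadsheet had turned into dates were restored. Genes with several regions are given by the strongest. The members and the gene lists were chosen with earlier results of these data known. Named genes are the 10 strongest, the 12 called with the largest positive and the 8 with the largest negative difference, up to 4 per list by level, CDH1, EPCAM, ITGB4, PTMA, SKIL and ALDH1A3, and genes with the most regions. Alternatives tried were the pseudocount, the scaling, the filter, the regions fitted, the trend, a replicate block and leaving out each library. Figures and tables were made with Python 3.11.15, pandas 2.3.3, numpy 2.4.6, scipy 1.17.1 and matplotlib 3.10.9.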

Additional observations from a re-analysis of the deposited data

How the results depend on the processing

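The 757 higher and 21 lower calls among the 2436 promoters and their median log2 difference of 0.51 depended on the scaling and on single libraries. With equal library totals there were 387 higher and 100 lower calls and the median was 0.16, so 79.5% of the calls were higher instead of 97.3%. Leaving out each library in turn gave 283 to 1110 higher calls, 5 to 42 lower calls and medians of 0.34 to 0.69. The lower calls numbered 8 when the specific sets alone were fitted and 12 without the trend. Centring on common promoters, which moves the median of all regions by -0.10, gave 613 higher and 30 lower. The replicate block, with the letters A and B as pairs, gave 848 higher and 26 lower. Deviations of same-lettered libraries had a correlation of -0.00393 over all regions. Whether a shared letter marks a shared culture or batch was not tested. The share of genes with a common region near a start was 15.5% when any such region within 1000 bp was counted, in place of 10.8% for common promoters. Pseudocounts of 0.5 and 5 gave 753 and 769 calls higher. By the authors' deposited p-values, 752 of the promoters were under 0.05 in the direction of the columns labelled shNC and 25 in the other, where 24.2% of all regions had one. With equal totals 87 of 143 named genes moved by more than the spread between replicates, and none reversed among called ones in any setting. Depth limits the weakest values most: 3 reads were the lowest count in shallower B.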
